A study of Mus musculus with 10 samples.

Results

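The machinery that imports proteins into mitochondria was measured here through 33 of the 18193 genes represented on Affymetrix arrays of whole embryonic mouse hearts. Members were chosen by name alone: 23 genes whose symbol begins with Timm or Tomm and a digit, together with Samm50, Mtx1, Mtx2, Chchd4, Gfer, Pam16, Grpel1, Grpel2, Pmpca and Pmpcb. Only probe sets annotated with 1 gene symbol were used, and where a gene had several, that with the highest mean over the 10 arrays stood for it. Dnajc19, Tomm5 and Tomm6, which belong to the same machinery, were not analysed here.

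The arrays hold 2 genotypes, both taken at 13.5 days post coitum from female embryos of the same litters: heterozygotes in which Hccs had been knocked out conditionally in the heart, and controls. Each genotype had 5 biological replicates, each an array of RNA pooled from 4 to 5 hearts of that genotype. The Cre driver, the recombined allele and the genotype of the controls beyond "control" are not given in the sources used here. Hccs is X-linked, and since 1 X chromosome is silenced in each female cell, heterozygous hearts mix cells that use the intact allele with cells that lack the enzyme. According to the series text, excess division of the healthy cardiomyocytes can be seen at this stage, and many deficient cells are still there. Whole hearts were used, so a transcript present in fewer cells and a transcript less abundant per cell cannot be told apart.

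Nearly all mitochondrial proteins are made in the cytosol and must cross one or both mitochondrial membranes. Precursors enter through the TOM complex of the outer membrane. From there, proteins with a cleavable presequence pass the TIM23 channel, are pulled into the matrix by the import motor around the chaperone Hspa9, and lose the presequence to a peptidase; carriers of the inner membrane are escorted by small Tim chaperones to the TIM22 complex; barrel proteins are inserted into the outer membrane by the SAM complex; and small cysteine-rich proteins are trapped in the intermembrane space by the Mia40 relay (Chchd4 and Gfer). Hccs, the enzyme removed here, is itself imported into the intermembrane space, and by attaching haem it retains cytochrome c there. The heart muscle depends on this traffic because its mitochondria are built almost entirely from imported parts.

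The labels were first checked on Hccs and on cell type markers. The log2 signal of Hccs lay between 11.11 and 11.31 in the control arrays and between 10.40 and 10.90 in the knockouts, with means of 11.23 ± 0.08 and 10.68 ± 0.20 (SD, n = 5 each; log2 change -0.55, SE 0.090; adjusted p = 0.0225 in limma). The groups did not overlap; the adjusted p in limma was 0.0511 without control replicate 2 or 3, 0.0517 without knockout replicate 2 and 0.0563 without knockout replicate 4. All 33 measured markers of 7 cell types, among them the 6 of cardiomyocytes, had a mean signal above the array medians, which ran from 3.65 to 3.76. The summed signal of the cardiomyocyte markers spanned 17.99 to 18.15 (log2) in controls and 17.79 to 17.98 in knockouts, without overlap. Of the 6, 5 had a negative change (median log2 change -0.13, beside 0.025 for all genes), and 1, Myh7, passed in limma as lower. Of 27 markers of the other 6 types (endothelium, epicardium, fibroblasts, smooth muscle, macrophages, erythroid cells) 0 passed in limma. In that order their median log2 changes were -0.2, 0.22, -0.05, -0.17, 0.0026 and -0.19, so a negative median was not particular to cardiomyocytes. An unadjusted p under 0.05 was found in 6 of the 27, and in 20.6% of all genes. The summed endothelial markers spanned 12.42 to 12.65 and 12.38 to 12.54, the epicardial 12.37 to 12.73 and 12.48 to 12.88, and those of smooth muscle 15.35 to 15.44 and 15.08 to 15.39, controls first. Summed fibroblast markers spanned 15.55 to 15.73 and 15.46 to 15.72, and those of macrophages 10.29 to 10.77 and 10.45 to 10.94. Erythroid markers spanned 16.77 to 17.19 and 16.69 to 17.11. The 18S ribosomal RNA control probe set was also lower in the knockouts (10.05 ± 1.25 against 8.17 ± 0.35, log2, mean ± SD, n = 5 each, exact two-sided permutation p = 0.0238). The groups overlapped there: control replicate 3 read 8.06, inside the knockout range of 7.84 to 8.57. The part of cell composition and of 18S RNA in the values below was not tested.

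One member of the import machinery, Timm9, passed the test, and it was higher in the knockout hearts. The fit was limma over all 18193 genes with Benjamini-Hochberg adjustment and a threshold of 0.05. Of all genes 2.58% passed; 1.63% of all genes passed as higher and 0.945% as lower, and 0 members were lower. Before adjustment, 10 members (30.3%), 9 higher and 1 lower, had a limma p under 0.05, where 20.6% of all genes had one. In 3 members, Timm9, Timm8a1 and Tomm20, every knockout array lay above every control array; these are 9.09% of the members, and over all genes the groups did not overlap in 5.79%. The share of members that passed, 3.03%, lies near that of all genes. Most members are bright, and the share of calls depends on level. With only the 9097 genes at or above the median level fitted, 759 genes passed. Of the 31 members among those genes 1 passed, Timm9. The other shares given here for all genes were not matched for level.

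**Figure D1:**
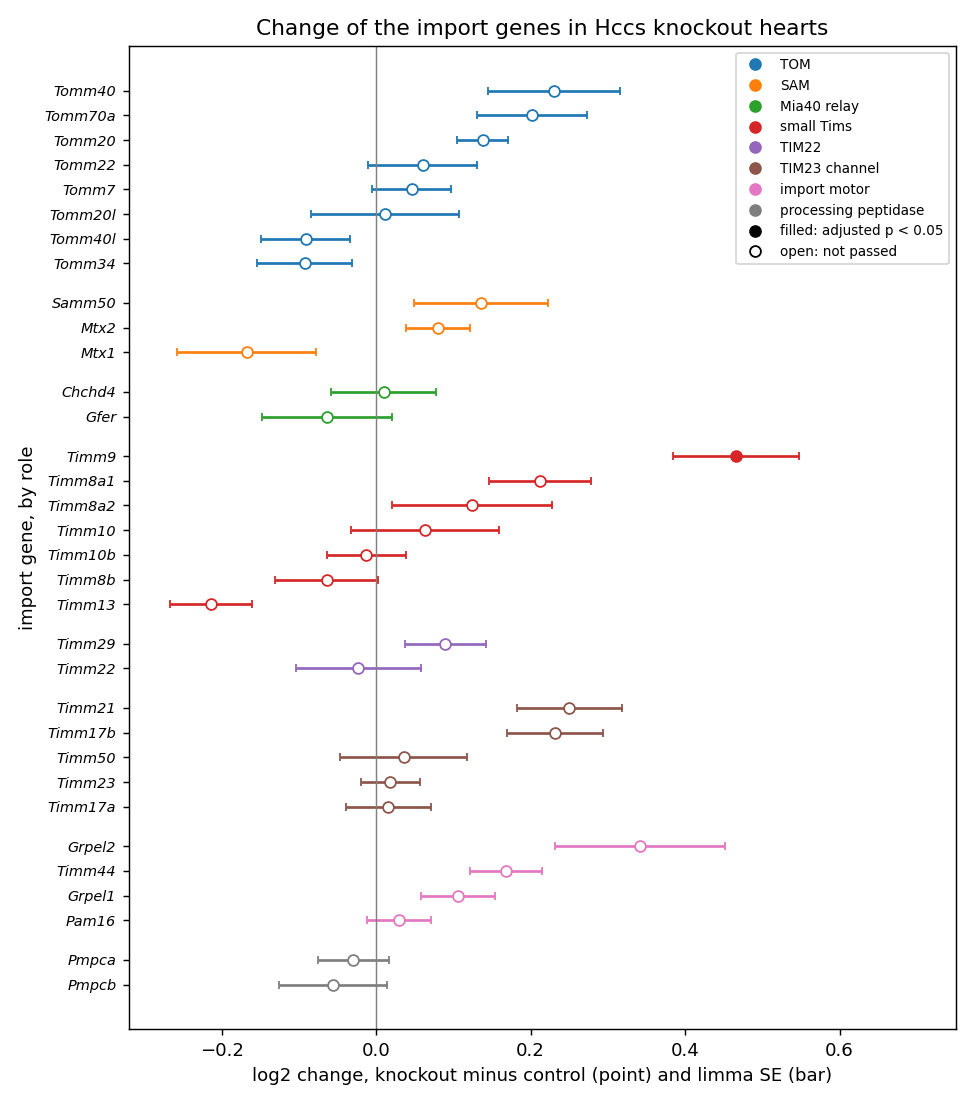
Log2 change (knockout minus control, horizontal axis) of the 33 import genes, grouped and coloured by role, with the standard error of the limma fit as a bar. The filled point, Timm9 at 0.47, is the member that passed an adjusted p of 0.05; open points did not pass, and they spread from Timm13 at -0.21 to Grpel2 at 0.34.

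The changes of the members were small. Their median log2 change was 0.046 beside 0.025 for all genes, 23 of the 33 were positive (69.7%, beside 60.5% of all genes), and the changes ran from -0.21 to 0.47. With quantile normalization the medians were 0.021 and 0.00073. The order turned when all _s_at and _x_at probe sets were left out, an alternative chosen after seeing the data. The median was then 0.017 for the 30 members left and 0.024 for all genes. In the other alternatives fitted by gene the member median stayed the higher. A median above that of all genes thus depended on which probe sets were used. Seen by array, 4, 12, 8, 14 and 24 of the 33 members lay above their own mean over the 10 arrays in control replicates 1 to 5, and 24, 26, 14, 21 and 17 in knockout replicates 1 to 5. Control replicate 5 thus sat among the knockouts and knockout replicate 3 among the controls by this count. Within a genotype the SD of a member was at most 0.20, and the standard error of a change was 0.033 to 0.11.

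Promoter windows were read for the 3 members whose groups separated, with Mtx2 as an example of a window that holds a searched motif. The windows run from 250 bases before to 50 after an annotated start, from RefSeq (GRCm38.p6), and 29 of the 33 members had at least 1, 31 windows in all. They lie at chr12:71136626-71136925, minus strand; chrX:134541621-134541920, minus strand; chr8:126945872-126946171, minus strand; and chr2:74825562-74825861, plus strand. Capitals mark a match to a motif, and lower case is the rest.
Timm9: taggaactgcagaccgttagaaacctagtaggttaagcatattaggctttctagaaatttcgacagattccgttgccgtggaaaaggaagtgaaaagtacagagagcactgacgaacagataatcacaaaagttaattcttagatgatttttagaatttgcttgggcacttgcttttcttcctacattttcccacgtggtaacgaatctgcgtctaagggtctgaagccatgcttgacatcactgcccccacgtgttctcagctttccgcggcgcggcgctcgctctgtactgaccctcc
Timm8a1: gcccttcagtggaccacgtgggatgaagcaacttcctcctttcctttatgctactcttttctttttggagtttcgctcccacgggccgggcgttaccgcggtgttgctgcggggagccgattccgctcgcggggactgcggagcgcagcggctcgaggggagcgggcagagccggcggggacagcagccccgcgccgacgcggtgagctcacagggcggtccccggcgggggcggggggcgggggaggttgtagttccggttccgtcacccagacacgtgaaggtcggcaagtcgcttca
Tomm20: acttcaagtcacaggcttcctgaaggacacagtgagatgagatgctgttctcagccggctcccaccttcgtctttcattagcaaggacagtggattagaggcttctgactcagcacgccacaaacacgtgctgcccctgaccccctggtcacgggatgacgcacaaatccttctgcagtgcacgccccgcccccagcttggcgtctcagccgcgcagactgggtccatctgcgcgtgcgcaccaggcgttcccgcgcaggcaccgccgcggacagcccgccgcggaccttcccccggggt
Mtx2: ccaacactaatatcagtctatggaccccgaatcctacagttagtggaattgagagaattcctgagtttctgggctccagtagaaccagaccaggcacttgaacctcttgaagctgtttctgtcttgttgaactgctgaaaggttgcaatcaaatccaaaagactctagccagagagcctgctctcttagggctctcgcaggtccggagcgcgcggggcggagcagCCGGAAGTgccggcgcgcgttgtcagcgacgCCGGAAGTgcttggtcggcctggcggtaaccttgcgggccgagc

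The letters searched on both strands were TGATGNAA, the composite element bound by ATF4, CCGGAAGT, bound by ETS factors such as GABPA, and GCATGCGC, part of the site of NRF1; none of the 3 contains another, and overlapping matches were each counted. TGATGNAA was in 0 of the 31 member windows and in 3.97% of all 32851 windows. CCGGAAGT was in 8 of the 31 windows (25.8%, beside 3.89% of all), those of Mtx2, Pmpcb, Timm10, Timm10b, Timm23, Timm29, Timm8a2 and Tomm70a, and GCATGCGC in 2 (6.45%, beside 2.71%), those of Grpel1 and Timm13. The windows of Timm9, Timm8a1 and Tomm20 held none of the 3, and of the 8 genes with CCGGAAGT none passed in limma, with 1, Tomm70a, at an unadjusted p under 0.05. Genes of 2 lists described below, outside the naming rule, held these letters too. CCGGAAGT was in 4 of 12 windows of partner genes (33.3%) and in 2 of 11 windows of Mia40 substrates (18.2%). GCATGCGC was in 2 of the 12 (16.7%) and in 2 of the 11 (18.2%). The median GC content was 60.0% in member windows and 52.7% in all, and its part in the shares was not tested. Of the members, 2 lie on the X chromosome with Hccs, Timm8a1 and Timm17b.

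At the entry gate, the 8 TOM genes gave 0 calls in limma, and 3 of them, Tomm20, Tomm40 and Tomm70a, had an unadjusted p under 0.05. These 3 are 37.5% of the 8, beside 20.6% of all genes. Each had a positive change, as did 60.5% of all genes. Tomm20, the receptor that recognises presequences, read 14.66, 14.68, 14.65, 14.70 and 14.64 in control replicates 1 to 5 and 14.76, 14.79, 14.77, 14.89 and 14.82 in knockout replicates 1 to 5 (log2 signal). The groups did not overlap, yet the shift was only 1.10-fold (log2 change 0.14, SE 0.033, limma adjusted p = 0.0608), just outside the threshold. Tomm40, the channel itself, read 10.80, 10.67, 10.86, 10.81 and 10.87 in controls and 11.06, 11.08, 10.75, 11.02 and 11.27 in knockouts (log2 signal; log2 change 0.23, SE 0.085, limma adjusted p = 0.172). Knockout replicate 3, at 10.75, lay inside the control range, and the other 4 knockouts lay above it. Tomm70a, the receptor for carrier precursors, read 11.40, 11.59, 11.69, 11.66 and 11.49 in controls and 11.64, 11.95, 11.78, 11.78 and 11.70 in knockouts (log2 change 0.20, SE 0.071; adjusted p = 0.157 in limma). Only knockout replicate 1 lay within the control range.

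In the probe sets that stood for them, the remaining TOM genes had changes between -0.093 and 0.060. Tomm22, the central receptor, had a log2 change of 0.060, with 11.52 to 11.90 in controls and 11.67 to 11.86 in knockouts. Tomm7, a small subunit that tunes the stability of the complex, had a change of 0.046 (SE 0.051) in the brightest of its 4 probe sets. The set of rank 3 in brightness, also an _x_at set, gave 0.48 (SE 0.13, limma adjusted p = 0.0939 over all probe sets). Tomm34, a cytosolic co-chaperone of precursors, and Tomm40l, a relative of the channel, had changes of -0.093 and -0.091; Tomm40l spanned 8.77 to 9.02 in controls and 8.72 to 8.87 in knockouts. Tomm20l, a relative of the receptor, read 2.98 in controls and 2.99 in knockouts, below the array medians.

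The SAM complex and the Mia40 relay held 0 calls among 5 genes in limma, and in none of the 5 was the unadjusted p under 0.05. Samm50, the barrel-shaped core of SAM, had a log2 change of 0.14 (SE 0.086), with 11.46 to 11.88 in controls and 11.65 to 11.93 in knockouts. Mtx2, a metaxin on its cytosolic face, had a change of 0.080 (SE 0.041), with 11.79 to 11.98 in controls and 11.97 to 12.06 in knockouts. Mtx1, the partner metaxin, had a change of -0.17 (SE 0.090). Mtx1 spanned 10.05 to 10.36 in controls and 9.84 to 10.26 in knockouts, so the groups overlapped. Chchd4, the oxidoreductase also called Mia40, had a change of 0.010 (SE 0.068), with 10.79 to 11.14 in controls and 10.88 to 11.04 in knockouts. Gfer, the sulfhydryl oxidase that recharges it, had a change of -0.064 (SE 0.084) in the probe set that stood for it. A second Gfer probe set rose and is described with the probe sets below.

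The small Tims, the chaperones that carry membrane proteins across the intermembrane space, gave the 1 call, with 4 positive and 3 negative changes. That call is 14.3% of these 7 genes, beside 2.58% of all genes. Timm9, which assembles with Timm10 into the main carrier chaperone, read 9.08, 8.78, 8.85, 9.01 and 9.19 in control replicates 1 to 5 and 9.38, 9.45, 9.38, 9.62 and 9.42 in knockout replicates 1 to 5 (log2 signal). All knockouts lay above all controls, with 8.98 ± 0.17 against 9.45 ± 0.10 (mean ± SD, n = 5 each), a 1.38-fold rise (log2 change 0.47, SE 0.082, limma adjusted p = 0.0250). Its partner Timm10 had a log2 change of 0.063 (SE 0.096), with 11.28 to 11.70 in both genotypes. The call of Timm9 was close to the threshold: the limma adjusted p was 0.0546, 0.0569 and 0.0544 without control replicates 1, 3 and 4, and 0.0572, 0.0520, 0.0611 and 0.0507 without knockout replicates 2, 3, 4 and 5. It held without control replicate 2 or 5 or knockout replicate 1, and over the alternatives that keep all arrays or drop those numbered 3 the adjusted p ran from 0.0135 to 0.798. Timm9 had a second, dim probe set (5.42 ± 0.72 against 5.26 ± 0.30), and the mean of both gave a log2 change of 0.15 (limma adjusted p = 0.565).

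Timm8a1, whose human counterpart is the gene of deafness-dystonia syndrome, was the second member with separated groups. It read 10.96, 11.03, 11.08, 11.08 and 11.20 in control replicates 1 to 5 and 11.22, 11.51, 11.21, 11.22 and 11.26 in knockout replicates 1 to 5 (log2 signal). The groups were separated by a narrow margin, with knockout replicate 2 well above the other 4, and the gene did not pass (log2 change 0.21, SE 0.066, limma adjusted p = 0.123). Its second probe set gave 0.37 (SE 0.082, limma adjusted p = 0.0565 over all probe sets), again with no overlap. Timm13, the partner with which Timm8 proteins form their own chaperone, pointed the other way. It read 11.96, 11.95, 11.83, 11.97 and 12.09 in controls and 11.85, 11.78, 11.68, 11.73 and 11.68 in knockouts (log2 signal; log2 change -0.21, SE 0.053; adjusted p = 0.0683 in limma). Of the knockouts only replicate 1 reached into the control range. Timm8b and Timm10b had changes of -0.064 and -0.012, Timm8b spanned 10.82 to 11.07 in controls and 10.72 to 10.97 in knockouts, and Timm8a2 read 3.46 to 3.97 in controls and 3.68 to 4.02 in knockouts, around the array medians.

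**Figure D2:**
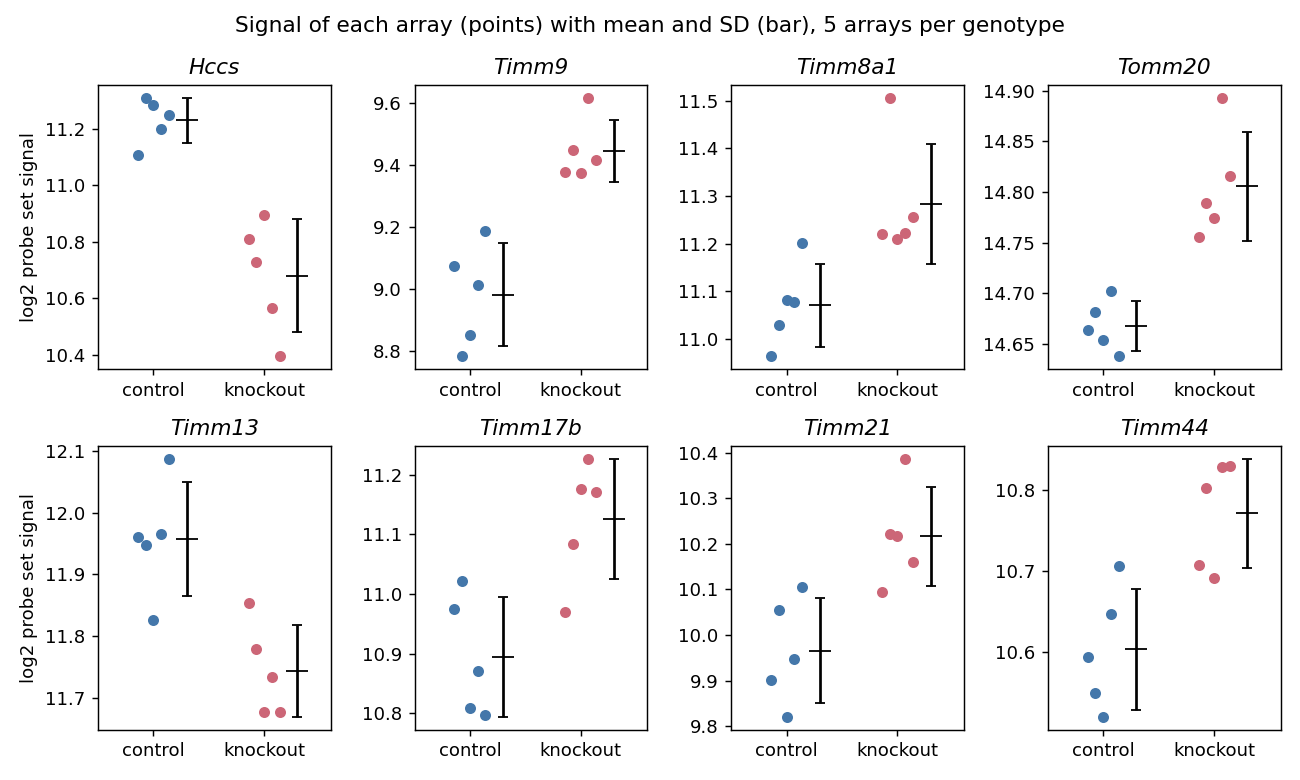
Log2 probe set signal of Hccs and of 7 import genes in each array (points, 5 per genotype, control blue and knockout red), with mean and SD beside them; each panel has its own vertical range, which does not start at 0. Timm9, Timm8a1 and Tomm20 show knockouts wholly above controls, Timm13 lies lower in the knockouts with overlap at replicate 1, and Hccs lies wholly below.

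In the inner membrane, the 2 TIM22 and the 5 TIM23 genes gave 0 calls in limma. Of these 7, Timm17b and Timm21 had an unadjusted p under 0.05, as did 20.6% of all genes. Timm22, the carrier channel, and Timm29, its metazoan partner, had log2 changes of -0.023 and 0.090; Timm22 spanned 9.49 to 9.85 in controls and 9.57 to 9.82 in knockouts. Timm21, which links TIM23 to the outer membrane and to respiratory chain assembly, read 9.90, 10.06, 9.82, 9.95 and 10.11 in controls and 10.09, 10.22, 10.22, 10.39 and 10.16 in knockouts (log2 change 0.25, SE 0.068, limma adjusted p = 0.0863). Control replicate 5 lay just above knockout replicate 1, and the genotypes were otherwise apart. Timm17b, a core subunit next to the channel, read 10.97 or 11.02 in control replicates 1 and 2, 10.80 to 10.87 in the other 3, and 10.97, 11.08, 11.18, 11.23 and 11.17 in knockouts (log2 change 0.23, SE 0.062, limma adjusted p = 0.0831). Timm17a, its paralog, at 12.20 to 12.46 in controls and 12.28 to 12.43 in knockouts, had a change of 0.016. The channel Timm23, at 13.06 to 13.19 in controls and 13.07 to 13.22 in knockouts, had a change of 0.019 and the receptor Timm50 of 0.036; the signs of Timm17a and Timm23 flipped when the arrays were centred on their medians, and that of Timm23 also with quantile normalization.

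The import motor and the peptidase that follows it also gave 0 calls among 6 genes in limma. Grpel2 and Timm44 had an unadjusted p under 0.05, as did 20.6% of all genes. Timm44, which tethers Hspa9 to the channel, read 10.59, 10.55, 10.52, 10.65 and 10.71 in controls and 10.71, 10.80, 10.69, 10.83 and 10.83 in knockouts (log2 signal; log2 change 0.17, SE 0.047, limma adjusted p = 0.0912). Grpel2, a nucleotide exchange factor of Hspa9, read 8.67, 8.74, 8.53, 8.94 and 8.89 in controls and 9.10, 8.76, 9.09, 9.26 and 9.26 in knockouts (log2 signal; log2 change 0.34, SE 0.11, limma adjusted p = 0.130). Knockout replicate 2 lay among the controls and the other 4 lay above them. The other exchange factor, Grpel1, had a change of 0.11 (SE 0.048), with 11.00 to 11.19 in controls and 11.12 to 11.28 in knockouts. Pam16, a regulator of the motor, had a change of 0.029 (SE 0.042), with 12.89 to 13.06 in controls and 12.98 to 13.10 in knockouts. Pmpca and Pmpcb, the subunits of the presequence peptidase, had changes of -0.030 and -0.056; Pmpcb read 11.68 to 11.87 in controls and 11.55 to 11.86 in knockouts.

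Several members are paralogs, and 5 pairs were compared through their log2 difference within each array, which asks whether both genes changed alike. The exact two-sided permutation test over arrays cannot go below 0.00794 with 5 against 5, and p-values were adjusted over the 5 pairs. The difference Tomm40 minus Tomm40l was 1.91 ± 0.07 in controls and 2.23 ± 0.17 in knockouts, wider by 0.32 (SE 0.084, exact permutation p = 0.00794, adjusted p = 0.0397), and all 5 knockout arrays exceeded all controls. Timm8a1 minus Timm8b widened by 0.28 (SE 0.098, exact permutation p = 0.0159, adjusted p = 0.0397), with knockout replicate 4 at 0.257 just below control replicate 3 at 0.264. With the most variable probe set of each gene in place of the brightest, the first changed sign to -0.015; the dimmer Tomm40l probe set, used there, had a log2 change of 0.24. With 1 array left out, the adjusted p of the first was 0.0595 to 0.0794 without control replicates 1, 2, 4 or 5, and that of the second was 0.0595 to 0.119 without control replicates 1, 2, 4 or 5 or knockout replicate 3. In those fits the difference of the first was still wider by 0.305 to 0.35, with every knockout above every control left. Timm17a minus Timm17b differed by -0.22 (adjusted p = 0.119) and Grpel1 minus Grpel2 by -0.24 (adjusted p = 0.169) in the same exact permutation test; without knockout replicate 2 the latter was -0.333 (adjusted p = 0.0397). Tomm20 minus Tomm20l differed by 0.13 (exact permutation, adjusted p = 0.317), but Tomm20l read below the array medians, so that pair does not show whether both genes changed alike.

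**Figure D3:**
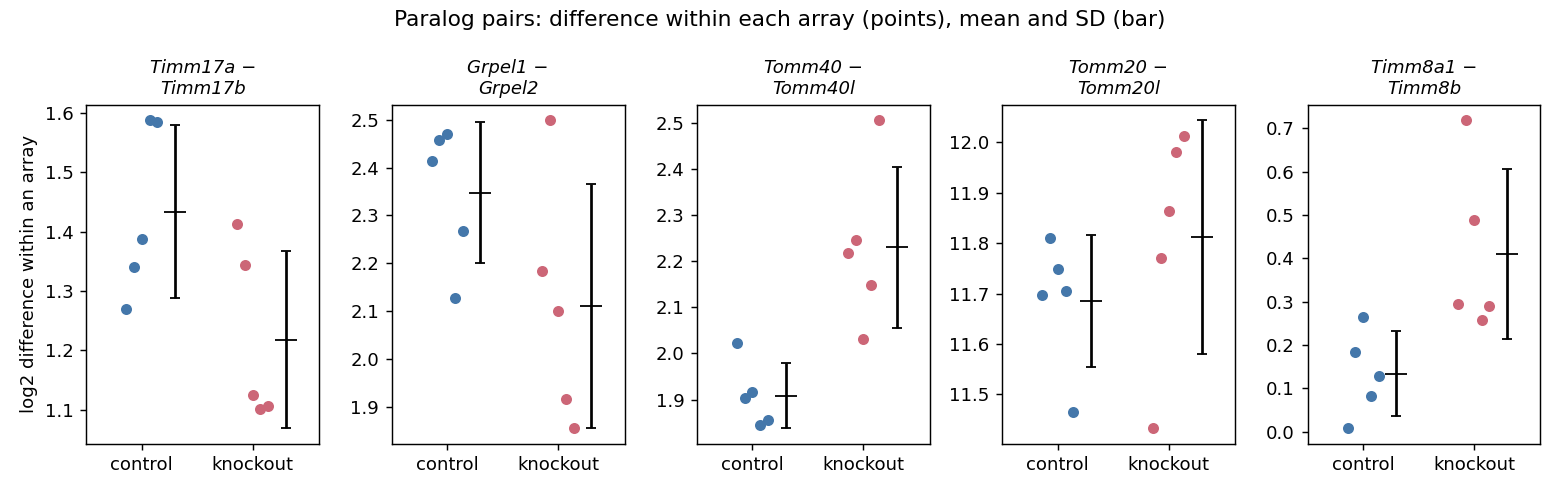
Log2 difference between the genes of 5 paralog pairs within each array (points, control blue and knockout red, n = 5 each) with mean and SD; the vertical axes differ and do not start at 0. Tomm40 minus Tomm40l lies higher in every knockout array (2.03 to 2.51) than in any control (1.84 to 2.02), while the other pairs overlap.

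The 33 members were covered by 66 probe sets. Fitted over every probe set with 1 symbol, 4 of the 66 passed in limma, all higher, where 1.71% of all probe sets passed. They belonged to Timm9, Tomm20, Tomm70a and Gfer. The dimmer Gfer probe set rose 1.54-fold, with 8.371, 7.962, 8.126, 8.140 and 7.969 in controls and 8.919, 8.635, 8.851, 8.503 and 8.765 in knockouts (log2 signal; adjusted p = 0.0254 in limma), with no overlap, whereas the brighter one, 8.90 against 8.84, did not pass. For Tomm70a the second in brightness, an _s_at set, rose 1.33-fold (limma adjusted p = 0.0494) and the third had a log2 change of 0.46 (limma adjusted p = 0.0550), while the next, also an _s_at set, gave -0.088. For Tomm20 the second in brightness, an _x_at set, rose 1.15-fold (limma adjusted p = 0.0254), and all 6 of its probe sets had a positive change.

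Of the 19 members with several probe sets, 11 had probe sets that differed in sign: Gfer, Mtx1, Pmpca, Pmpcb, Samm50, Timm10b, Timm17b, Timm50, Timm9, Tomm40l and Tomm70a. Affymetrix marks probe sets with probes shared with other transcripts by the suffixes _s_at and _x_at. Samm50, Timm17b, Timm44 and Tomm7 stood on an _x_at set and Mtx2, Pam16 and Timm8a2 on an _s_at set. For Timm17b the _x_at set gave a log2 change of 0.23 and its plain set -0.045. With all _s_at and _x_at sets left out, an alternative chosen after seeing the data, Timm9 was again the 1 member that passed.

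**Figure D4:**
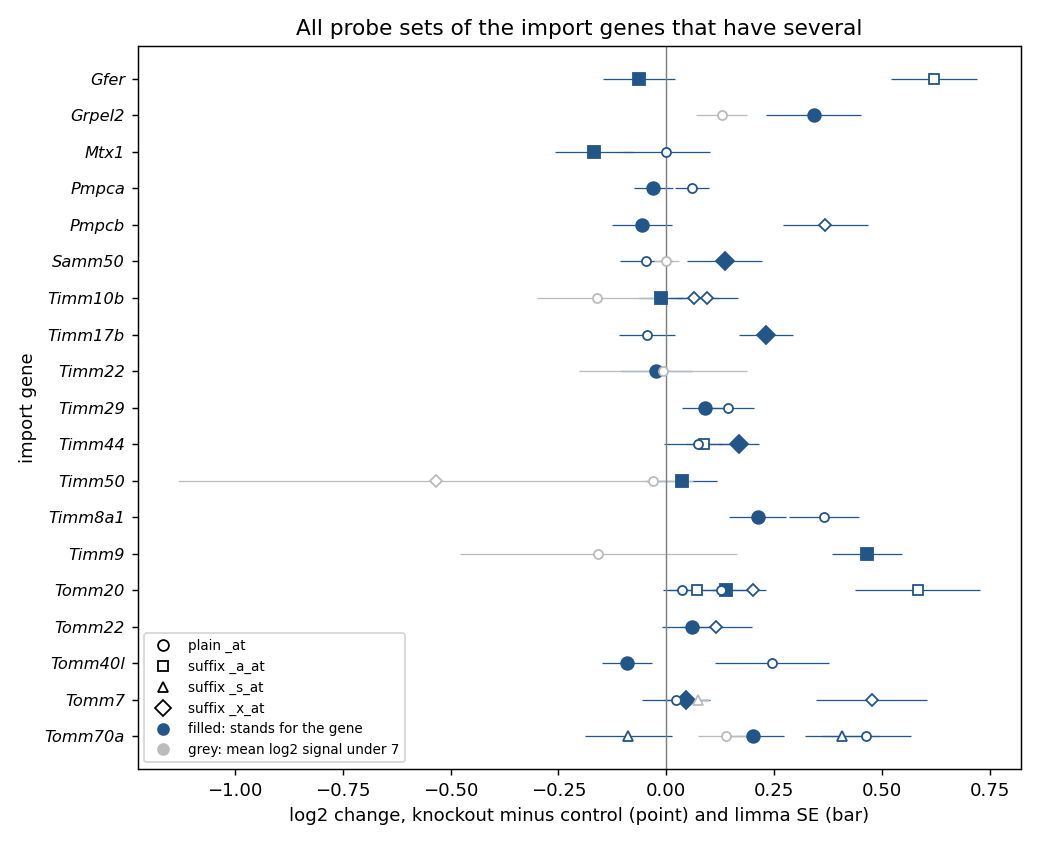
Log2 change (horizontal axis) and limma standard error of every probe set of the 19 import genes that have several; a filled symbol marks the probe set that stood for the gene, the shape gives the suffix, and grey marks a mean log2 signal under 7. Gfer and Timm17b show probe sets of 1 gene that lie apart (-0.064 and 0.62; 0.23 and -0.045), while those of Tomm20 and Timm8a1 all lie above 0.

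Genes that work with the members but fall outside the naming rule were taken from a list of partners. Of 14 measured partners Hspa9, the motor chaperone, rose, 0 fell and 13 did not pass. Hspa9 read 12.61, 12.78, 12.81, 12.76 and 12.81 in control replicates 1 to 5 and 12.92, 13.17, 12.95, 13.17 and 13.25 in knockout replicates 1 to 5 (log2 signal; log2 change 0.34, SE 0.073, limma adjusted p = 0.0447). The groups did not overlap, but the call was lost in 9 of the 10 fits with 1 array left out (limma adjusted p = 0.0579 to 0.104), and held without knockout replicate 1. Hspa8, the cytosolic chaperone that delivers precursors, had a change of 0.20 (SE 0.056, limma adjusted p = 0.0967) in an _x_at set. It passed with quantile normalization (0.209, limma adjusted p = 0.0387) and, at 0.875, without _s_at and _x_at sets (limma adjusted p = 0.039); over the alternatives that keep all arrays or drop those numbered 3 its adjusted p ran from 0.0387 to 0.28. The median change of the 14 was 0.11, beside 0.025 for all genes. An unadjusted limma p under 0.05 was found in 5 (35.7%, beside 20.6% of all genes), all higher. The 1 call is 7.14% of the 14, beside 2.58% of all genes. The 1 gene without overlap is also 7.14%, beside 5.79% of all genes.

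Substrates of the Mia40 relay and proteins of like fold were also set beside it. Of 15 measured, Ndufb7, a complex I subunit, fell and 14 did not pass. Ndufb7 went from 12.98 ± 0.04 to 12.79 ± 0.05 (log2, mean ± SD, n = 5 each; log2 change -0.19, SE 0.036, limma adjusted p = 0.0313) with no overlap. Its call was lost in 9 of the 10 fits with 1 array left out (limma adjusted p = 0.0507 to 0.0733), and held without knockout replicate 1. Cox6b1, a cytochrome oxidase subunit, had a change of -0.19 (SE 0.062, limma adjusted p = 0.143). The median change of the 15 was 0.013, beside 0.025 for all genes. The 1 call is 6.67% of the 15, beside 2.58% of all genes. The 1 gene without overlap is also 6.67%, beside 5.79% of all genes.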

How the data were processed

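RNA of 10 pools of hearts was hybridised to Affymetrix arrays, 1 pool per array. What the authors deposited is a log2 signal per probe set; the submitters' processing notes name RMA and Partek, with versions and background option not given in the sources used here. That the scale is log2 follows from the range, 0.602 to 16.6. RMA brings arrays to a common distribution, so changes are relative and a change of total RNA cannot be seen. The sources give no scan batch and no detection calls; precision is limited by how many arrays there are.

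Of 45101 probe sets, 34945 carried 1 symbol in the platform annotation. Log2 changes (knockout minus control) come from limma 3.58.1 (R 4.3.3; lmFit and eBayes with genotype as the 1 term, two-sided), with no filter, and adjusted over all 18193 genes. An SE is that of the moderated fit; for pairs it comes from the SDs of both groups. The code was tested on simulated data. Members, lists and tests were chosen with earlier results of these data known. The rule for named genes was members that passed or whose groups did not overlap, the brightest of each role, both genes of each pair, and list genes that passed, with the brightest of each list. Values of every array for Timm21, Timm44 and Tomm70a, outside this rule, were added after their unadjusted p was seen. The rule foresaw array values only for members that passed or whose groups did not overlap. Array values are also printed for Tomm40, Grpel2, Timm13 and, in part, Timm17b, which the rule named without them. Each of these had an unadjusted limma p under 0.05. Immp2l and Chchd2 of these lists were not analysed here. Same-numbered arrays were not paired: the correlations of their deviations from the group means were -0.091 to 0.077. The alternatives tried were a block for the replicate number, 2 normalizations, 2 level filters, other probe set rules, eBayes with trend and robust, array weights, a threshold of 0.01, arrays left out, and, after seeing the data, no _s_at or _x_at probe sets. Plots were drawn with matplotlib 3.10.9.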

Additional observations from a re-analysis of the deposited data

Results flagged for a closer look

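In groups of 5 arrays, 5 of 86 groups held an array whose gap to the nearest other array exceeded 0.71 of the whole range; chance gives about 1 in 20. Timm8a1 in knockout replicate 2 read 11.51, with the other 4 knockouts at 11.21 to 11.25. Control replicate 1 was the low array in 3 of the 5: Mtx2 read 11.79 (the others 11.94 to 11.98), Pam16 12.89 (the others 13.01 to 13.06) and Hspa9 12.61 (the others 12.76 to 12.81). Ndufb7 read 12.69 in knockout replicate 3, with the others at 12.79 to 12.83.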

How the results depend on the processing

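The count of 1 import gene called was 0 with the replicate block, median centring, a threshold of 0.01 or without the arrays numbered 3, 2 with quantile normalization (Timm9 and Timm13, the latter lower) or the mean of probe sets (Gfer and Tomm20), 4 over every probe set and 5 with array weights (4 higher, and Timm13 lower), where the calls over all genes also rose, from 469 to 945. The import genes called higher were 0, 0, 0, 0, 1, 2, 4 and 4 in the same order, and those lower 1 with quantile normalization or array weights. With the most variable probe set the count stayed 1, but the gene called was Gfer. Timm9 did not pass there (-0.158, limma adjusted p = 0.798). With 1 array left out, which lowers the power, 0 to 4 were called, 0 to 3 higher and 0 to 1 lower; 4 were called without knockout replicate 1, where 1042 of all genes were. The replicate block reduced the calls over all genes from 469 to 36, and in 1 of 5 numbers the control correlated best with its own knockout, so it is not read as a weaker effect.

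Import neighbours called were 0 with the replicate block, median centring, threshold 0.01 and without the arrays numbered 3, and 2 with quantile normalization, the mean of probe sets and no _s_at or _x_at sets (0 to 1 with 1 array left out). With the most variable probe set the count stayed 1, but Hspa9 did not pass (limma adjusted p = 0.0632). Mia40 substrates called were 0 with the replicate block, median centring, the lower quartile filter, the most variable probe set, threshold 0.01 and without the arrays numbered 3, and 2 with trend and robust or array weights (0 to 3 with 1 array left out). With the median level filter and without knockout replicate 3 the count stayed 1. Ndufb7 did not pass in either (limma adjusted p = 0.0584 and 0.0597). Hccs (-0.551) had an adjusted p of 0.0735 with the replicate block, 0.0225 at threshold 0.01, and 0.0714 without the arrays numbered 3 (-0.591); with 1 array left out its change was -0.605 to -0.48.

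Tomm40 minus Tomm40l was 0.321 with the replicate block (adjusted p = 0.156; 5 pairs cannot go below an unadjusted 0.0625 in the exact test), 0.153 with the mean of probe sets, 0.373 without the arrays numbered 3 (adjusted p = 0.0714), -0.0146 with the most variable probe set and 0.252 to 0.371 with 1 array left out. Timm8a1 minus Timm8b lost its call with the replicate block (0.276, adjusted p = 0.156) and without the arrays numbered 3 (0.289, adjusted p = 0.0714), and was 0.199 to 0.314 with 1 array left out. Without the arrays numbered 3 the exact permutation p of both pairs was 0.0286, the lowest that the arrays left allow. That loss is therefore not read as a weaker difference. Timm17a minus Timm17b was 0.0602 without _s_at and _x_at sets, and -0.265 to -0.178 with 1 array left out. Grpel1 minus Grpel2 was -0.333 (adjusted p = 0.0397, without knockout replicate 2) to -0.173, and Tomm20 minus Tomm20l 0.0715 to 0.221, with 1 array left out.

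Signs also turned for these log2 changes. With the most variable probe set Timm9 gave -0.158, Gfer 0.621, Pmpcb 0.369, Timm50 -0.535 and Tomm40l 0.245. Each of these is the value of the gene's probe set of rank 2 in brightness. That of Timm50 read 5.541 in control replicate 4 and 2.272 to 2.811 in the other arrays. With the mean of probe sets Gfer gave 0.279, Pmpca 0.0151, Pmpcb 0.157, Timm50 -0.176 and Tomm40l 0.0768. Without _s_at and _x_at sets Samm50 gave -0.0462 and Timm17b -0.0446. Quantile normalization gave Chchd4 -0.0102, Timm23 -0.00237 and Tomm20l -0.0271. Median centring gave Chchd4 -0.0124, Timm17a -0.00684, Timm23 -0.00392 and Tomm20l -0.011. Array weights gave Chchd4 -0.0123 and Tomm20l -0.0175. Without the arrays numbered 3 Chchd4 gave -0.0081, Pmpca 0.0227 and Timm17a -0.00717. With 1 array left out the ranges were -0.0276 to 0.0598 for Chchd4, -0.0493 to 0.00702 for Pmpca, -0.043 to 0.0272 for Timm10b, -0.0176 to 0.048 for Timm17a, -0.0816 to 0.0102 for Timm22, -0.000815 to 0.0372 for Timm23, -0.0154 to 0.0765 for Timm50 and -0.0709 to 0.0589 for Tomm20l. Apart from the change of probe set under the probe set rules, the cause was not tested. Signal over background was not given, so dim probe sets could not be marked as undetected.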

Other observations

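Chchd10, a twin-cysteine protein of the intermembrane space and a gene chosen here after its values were seen, lay just outside the threshold. Its log2 signal was 14.11, 14.31, 14.21, 14.20 and 14.26 in control replicates 1 to 5 and 14.42, 14.63, 14.30, 14.64 and 14.60 in knockout replicates 1 to 5 (log2 change 0.30, SE 0.072, limma adjusted p = 0.0581). Knockout replicate 3 fell marginally below control replicate 2, and the other 4 knockouts lay above all controls. Its promoter window (RefSeq, GRCm38.p6, chr10:75932880-75933179, plus strand) holds TGATGNAA at 2 places, in capitals.
Chchd10: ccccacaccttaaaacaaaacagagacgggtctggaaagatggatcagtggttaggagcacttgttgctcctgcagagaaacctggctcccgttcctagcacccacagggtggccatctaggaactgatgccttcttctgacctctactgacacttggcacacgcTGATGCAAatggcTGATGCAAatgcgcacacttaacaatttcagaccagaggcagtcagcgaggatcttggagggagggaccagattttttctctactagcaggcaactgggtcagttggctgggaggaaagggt

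TGATGNAA was in 4 of 11 windows of measured Mia40 substrates (36.4%), those of Chchd10, Cmc1, Cmc2 and Coa4. It was in 3.97% of all windows, in 0 of 12 windows of partner genes and in 0 of the 31 windows of the import genes. Cmc1 and Cmc2 had log2 changes of 0.11 and -0.18 and Coa4, at 3.52 and 3.41, read below the array medians; none of the 4 passed in limma.

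The Tomm20 probe set of rank 3 in brightness had the same deposited value, 12.5021, in 4 of the 5 control arrays, while its 5 knockout arrays ran from 12.67 to 13.40. Over the table, 147 of the 45101 probe sets had the same value in 4 or more arrays. Its control SD, 0.056, rests on those repeated values; its log2 change was 0.58 (SE 0.15, limma adjusted p = 0.0753 over all probe sets).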
